A study of Mus musculus with 4 samples.

Results

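The genes studied here encode the enzymes that make and remodel phosphatidylcholine, the main lipid of pulmonary surfactant. They are *Chka*, *Chkb*, *Pcyt1a*, *Pcyt1b*, *Gpam*, *Lpin1*, *Chpt1*, *Cept1* and *Lpcat1*, 9 of the 45706 genes in the table. These genes were chosen by name and function, with earlier results of these data known. Their mRNA was measured by RNA-seq in left lung lobes of C57BL/6 mice at embryonic day 17 (E17), from 2 wild-type mice, called *Myh10+/+*, and 2 mice homozygous for *Myh10* L458R, called *Myh10-/-*. L458R is a missense allele of *Myh10*, the heavy chain of non-muscle myosin II-B, that came from a mutagenesis screen with *N*-ethyl-*N*-nitrosourea. Every cell of the mutant animal carries it, no lung received a treatment, and all lungs were whole lobes. Transcripts of all cell types are therefore pooled, and fewer cells of a type cannot be told apart from less RNA per cell.

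Of the 9 genes, *Lpcat1* fell by 23.6% in *Myh10-/-* lungs, and none rose. *Lpcat1* encodes the acyltransferase that builds the dipalmitoyl form of phosphatidylcholine in alveolar type II (AT2) cells. The 95% intervals of the genes for the kinases, for the final transferases, for *Gpam* and for the minor cytidylyl transferase included no difference. *Pcyt1a*, *Lpin1*, *Gpam* and, by a very small margin, *Chpt1* had lower values in both *Myh10-/-* lungs without passing the test, and with *Lpcat1* these make 5 of 9, where 24.3% of all tested genes had this order. Among neighbouring pathways, 6 of 18 genes of fatty acid supply were lower, *Scd1* and *Fasn* among them, and 1 of 45 other glycerophospholipid genes was. Over all tested genes 1.34% were called lower. Both mutant lungs lay below both wild-type lungs for 16 of those 18 and 23 of those 45 genes, and above them for 0 and 7. The lower order was thus not particular to the 9. Lower calls were not particular to lipid genes either. They were made for 7 of 10 AT2 markers, 5 of 5 alveolar type I (AT1) markers and 20 of all 48 cell type markers tested.

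Surfactant is the film that keeps the air spaces from collapsing at expiration, and AT2 cells make and store it in lamellar bodies before birth. Phosphatidylcholine is assembled along the CDP-choline route. A choline kinase phosphorylates choline, a cytidylyl transferase turns phosphocholine into CDP-choline in the step that usually limits the rate, and a cholinephosphotransferase joins it to diacylglycerol. The diacylglycerol comes from acylation of glycerol-3-phosphate and removal of the phosphate by a lipin. Many of the molecules formed this way carry an unsaturated chain. In AT2 cells this chain is cut off, and the enzyme that *Lpcat1* encodes then adds palmitate in its place.

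The total count on genes was 19116971 to 23156026 in the *Myh10+/+* lungs and 27573824 to 32055306 in the *Myh10-/-* lungs, so the mutant libraries were deeper. *Myh10* itself had 505 and 504 CPM (counts scaled to library size by the TMM method of edgeR) in *Myh10+/+* lungs and 539 and 513 in *Myh10-/-* lungs and, as a missense change need not alter its mRNA, it is no check of the labels. *Xist* was high in *Myh10+/+* lung 1 and *Myh10-/-* lung 2, and the Y-linked *Ddx3y* in the other two, so each genotype held 1 lung of each kind. The genotypes were compared with edgeR's quasi-likelihood test over the 18763 genes averaging 5 or more counts per lung, a gene was called at a Benjamini-Hochberg adjusted p under 0.05, and the median log2 fold change of all tested genes was 0.00. All 9 genes of phosphatidylcholine synthesis passed this minimum. In this test 252 genes were lower in *Myh10-/-* lungs, 1.34% of those tested, and 56 were higher, 0.298%. Against this background 1 of the 9 was lower and 0 were higher. The values of the genotypes did not overlap, with both mutant lungs below both wild-type lungs, for 5 of the 9, a pattern that 24.3% of tested genes had. The opposite order was seen for 1 of the 9 and for 23.9% of tested genes. Among the neighbouring genes examined below, both mutant lungs lay lower for 23 of 45 glycerophospholipid genes and higher for 7. They lay lower for 16 of 18 genes of fatty acid supply and 33 of 48 cell type markers, and higher for 0 and 1.

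The upstream sequences of *Lpcat1*, the gene that was called, and of *Pcyt1a* and *Pcyt1b*, paralogs with very different levels in these lungs, are shown first. They are taken from RefSeq on GRCm38.p6, end before the first annotated exon of the gene and read 5′ to 3′ on the gene's strand, here the plus strand. Capitals mark the letters GGGCGG (a GC box), CCAAT (a box bound by NF-Y) and TCACNCCAC (a form of the sterol regulatory element), each searched on both strands.
*Lpcat1*, chr13:73466981-73467196: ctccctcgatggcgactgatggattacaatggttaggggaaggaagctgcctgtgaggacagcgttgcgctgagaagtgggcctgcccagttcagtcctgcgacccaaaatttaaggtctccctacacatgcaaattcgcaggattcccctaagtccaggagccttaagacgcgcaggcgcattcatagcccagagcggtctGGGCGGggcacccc
*Pcyt1a*, chr16:32430671-32430920: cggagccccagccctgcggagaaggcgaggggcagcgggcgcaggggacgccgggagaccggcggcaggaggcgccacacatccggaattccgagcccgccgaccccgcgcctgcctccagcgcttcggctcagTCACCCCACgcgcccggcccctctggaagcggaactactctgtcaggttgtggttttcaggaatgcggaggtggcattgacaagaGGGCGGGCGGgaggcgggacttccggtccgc
*Pcyt1b*, chrX:93654613-93654862: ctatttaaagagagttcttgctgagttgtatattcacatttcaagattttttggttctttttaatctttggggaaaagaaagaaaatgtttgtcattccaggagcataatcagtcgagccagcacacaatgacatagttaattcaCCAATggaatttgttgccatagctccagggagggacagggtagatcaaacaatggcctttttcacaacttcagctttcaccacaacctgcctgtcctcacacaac
The *Lpcat1* window, 216 bases long, had a GC content of 57.9% with 11 CpG sites and a single GC box. The *Pcyt1a* window, 250 bases long, had a GC content of 71.6% with 28 CpG sites, 2 overlapping GC boxes and the sterol element. In contrast, the *Pcyt1b* window of the same length had a GC content of 39.6%, 1 CpG site and a CCAAT box. Other annotated starts differed less. A further *Pcyt1b* window had a GC content of 53.6% with 8 CpG sites. Further *Pcyt1a* windows had 67.6% with 27 CpG sites and 64.0% with 14, the latter without a GC box or the sterol element. Which start these lungs use was not tested. Over the 9 genes, taking the outermost annotated start of each, the GC box was present in 6 windows and in 32.7% of all 32851 promoter windows of 250 bases. CCAAT was present in 5 of the 9 and in 33.8% of all windows. TCACNCCAC was present in 1 of the 9, that of *Pcyt1a*, and in 1.05% of all windows, while TATAAA was present in 1 of the 9, that of *Chkb*, and in 12.4%. Each of the 9 genes was counted at 1 start, while the background counts all windows, of which a gene can have several. At its other start *Gpam* had a GC box and no CCAAT, the reverse of the window counted here. The windows of *Lpcat1* and *Chpt1* were shorter than those of the background, and a match of letters does not show that a factor binds.

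Levels were compared between genes per kilobase of exon. In *Myh10+/+* lungs *Lpcat1* had by far the highest level of the 9, at 112 and 105 CPM per kilobase. It was followed by *Cept1* at 30.8 and 31.9, *Gpam* at 25.2 and 23.2, *Pcyt1a* at 21.5 and 20.4, *Chka* at 16.1 and 15.7, *Chkb* at 15.7 and 15.8, *Chpt1* at 12.2 and 11.9 and *Lpin1* at 3.80 and 3.72 CPM per kilobase. *Pcyt1b* was lowest at 0.831 and 0.971. *Lpcat1* thus stood 3.46 times above *Cept1*, and among neighbours in this order *Chka* and *Chkb* alone overlapped between lungs. This order rests on exon lengths from GENCODE and, for genes that share sequence or exons with others, on counts that leave out ambiguous reads.

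**Figure D1:**
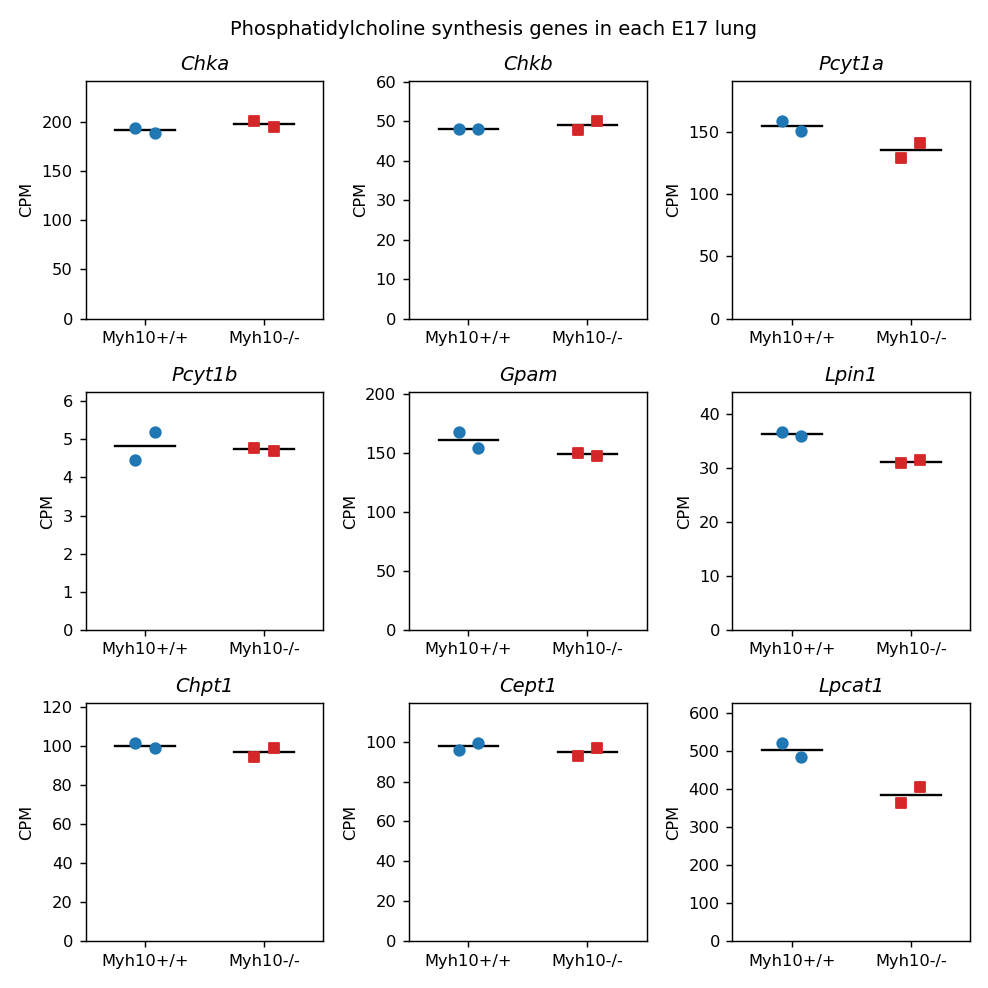
CPM of the 9 phosphatidylcholine synthesis genes (linear axis from 0) in each E17 lung, with circles for *Myh10+/+*, squares for *Myh10-/-* and a bar at the mean of 2 lungs. *Lpcat1* lies at 484 to 521 in *Myh10+/+* lungs and at 362 to 406 in *Myh10-/-* lungs, while the genotypes lie close together for *Chka*, *Chkb*, *Chpt1* and *Cept1*.

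The choline kinases start the route by trapping choline in the cell as phosphocholine. *Chka* (ENSMUSG00000024843, chromosome 19, 3851773 to 3894369, plus strand) encodes choline kinase alpha, the form essential for embryonic development. It had 194 and 189 CPM in *Myh10+/+* lungs and 201 and 195 CPM in *Myh10-/-* lungs. Both mutant values lay above both wild-type values, by a margin of less than the difference within either genotype, and the log2 fold change was 0.05 (SE 0.05, 95% interval -0.05 to 0.15, adjusted p = 0.642 by edgeR's quasi-likelihood test). Antisense genes cover 239 bp of *Chka* exons. *Chkb* (ENSMUSG00000022617, chromosome 15, 89426360 to 89429908, minus strand) encodes choline kinase beta, whose loss causes a muscular dystrophy in mice. Its CPM was 48.1 and 48.2 in *Myh10+/+* lungs and 47.8 and 50.2 in *Myh10-/-* lungs, so the genotypes overlapped. The log2 fold change of *Chkb* was 0.03 (SE 0.07, 95% interval -0.13 to 0.19, adjusted p = 0.904). Exons of *Chkb* overlap other annotated genes over 1552 bp on the same strand and 320 bp on the opposite one, and 45.4% of the 75-base windows along its transcripts occur in other transcripts, so its level is less certain than those of the other genes. Per kilobase, *Chka* made up 50.6% and 49.9% of the summed level of both kinases in *Myh10+/+* lungs and 51.7% and 49.7% in *Myh10-/-* lungs. Both kinases thus had similar levels per kilobase in every lung, whereas by raw counts, without the exon length, *Chka* made up 80.1% and 79.7% in *Myh10+/+* lungs and 80.8% and 79.5% in *Myh10-/-* lungs. Per kilobase the share of *Chka* differed by 0.43 percentage points between genotypes (exact permutation test, two-sided, p = 1.0).

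The cytidylyl transferases form CDP-choline. *Pcyt1a* (ENSMUSG00000005615, chromosome 16, 32430921 to 32475070, plus strand) encodes the alpha form, which moves between the nucleus and membranes and is activated by lipid binding. Its CPM was 159 and 151 in *Myh10+/+* lungs and 129 and 141 in *Myh10-/-* lungs. Both mutant lungs lay below both wild-type lungs, and the gap between genotypes was about as wide as the spread within them. On the log2 scale the fold change was -0.20 (SE 0.06, 95% interval -0.32 to -0.07, adjusted p = 0.111), short of the threshold by edgeR's quasi-likelihood test. *Pcyt1a* passed when no minimum count was set (adjusted p = 0.0240), where 2.41% of the 28549 genes then tested were lower, and when *Myh10-/-* lung 2 was left out (0.00683). In the other alternatives that used all lungs the adjusted p reached 0.135, and when *Myh10+/+* lung 1 was left out it was 0.454. *Pcyt1b* (ENSMUSG00000035246, chromosome X, 93654863 to 93749951, plus strand) encodes the beta forms, known from brain and gonads. Its CPM was 4.45 and 5.20 in *Myh10+/+* lungs and 4.78 and 4.69 in *Myh10-/-* lungs, with both mutant values between the wild-type values. The log2 fold change of -0.02 (SE 0.16, 95% interval -0.37 to 0.33, adjusted p = 0.967) was the least precise of the 9, and it changed sign when *Myh10+/+* lung 2 was left out (0.09). Of the level per kilobase of both genes, *Pcyt1a* made up 96.3% and 95.4% in *Myh10+/+* lungs and 95.1% and 95.6% in *Myh10-/-* lungs. Of the exons of *Pcyt1a* 674 bp overlap genes on the opposite strand, while *Pcyt1b* overlaps none. The alpha form therefore accounted for nearly all cytidylyl transferase mRNA in each lung, and its share changed by -0.50 percentage points (exact permutation test, two-sided, p = 0.667).

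The diacylglycerol backbone begins with glycerol-3-phosphate acyltransferases. *Gpam* (ENSMUSG00000024978, chromosome 19, 55067268 to 55127238, minus strand) encodes the mitochondrial one, which prefers palmitate. It had 168 and 154 CPM in *Myh10+/+* lungs and 150 and 148 CPM in *Myh10-/-* lungs. No mutant value reached a wild-type value, but the nearest values of the genotypes were closer to each other than the 2 wild-type values were. The log2 fold change was -0.11 (SE 0.05, 95% interval -0.23 to 0.00, adjusted p = 0.310 by edgeR's quasi-likelihood test), and it was -0.05 without *Myh10+/+* lung 1 and -0.18 without *Myh10+/+* lung 2. *Gpam* made up 61.9% and 58.9% of the level per kilobase of its enzyme step in *Myh10+/+* lungs and 59.8% and 59.4% in *Myh10-/-* lungs. *Gpat4*, the main acyltransferase of the endoplasmic reticulum, held most of the remainder, at 36.7% and 39.3% in *Myh10+/+* lungs and 38.2% and 39.2% in *Myh10-/-* lungs. *Gpat2* stayed between 0.475% and 0.661% and *Gpat3* between 0.825% and 1.28%, so both were minor forms in every lung. The share of *Gpam* overlapped between genotypes (difference -0.78 percentage points, exact permutation test, two-sided, p = 1.0).

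Lipins dephosphorylate phosphatidate to diacylglycerol, and *Lpin1* (ENSMUSG00000020593, chromosome 12, 16535669 to 16610966, minus strand) encodes the form known from fat and muscle that also acts as a transcriptional co-regulator. Its CPM was 36.8 and 35.9 in *Myh10+/+* lungs and 31.0 and 31.4 in *Myh10-/-* lungs. The lungs of a genotype lay closer to each other than to either lung of the other genotype. The log2 fold change was -0.22 (SE 0.07, 95% interval -0.38 to -0.06, adjusted p = 0.159 by edgeR's quasi-likelihood test), short of the threshold over all genes. Of the summed level of the lipins per kilobase, *Lpin1* made up 23.6% and 23.8% in *Myh10+/+* lungs and 21.8% and 22.8% in *Myh10-/-* lungs. *Lpin2* was the major form in each lung, with 57.0% and 57.9% in *Myh10+/+* lungs and 59.6% and 59.1% in *Myh10-/-* lungs. The share of *Lpin1* changed by -1.38 percentage points without overlap between genotypes, and the exact permutation test (two-sided) gave p = 0.33, the smallest that 2 against 2 lungs allow.

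Cholinephosphotransferases complete the molecule. *Chpt1* (ENSMUSG00000060002, chromosome 10, 88452745 to 88504073, minus strand) encodes the enzyme specific for choline, located in the Golgi. It had 102 and 99.1 CPM in *Myh10+/+* lungs and 94.8 and 99.0 CPM in *Myh10-/-* lungs. The nearest values of the genotypes were almost equal. *Cept1* (ENSMUSG00000040774, chromosome 3, 106502260 to 106547802, minus strand) encodes the enzyme of the endoplasmic reticulum that accepts CDP-choline and CDP-ethanolamine. It had 95.9 and 99.5 CPM in *Myh10+/+* lungs and 93.1 and 96.9 CPM in *Myh10-/-* lungs, with overlap. The log2 fold change was -0.05 (SE 0.06, 95% interval -0.17 to 0.07, adjusted p = 0.704) for *Chpt1* and -0.04 (SE 0.06, 95% interval -0.16 to 0.08, adjusted p = 0.780) for *Cept1* by edgeR's quasi-likelihood test. The intervals thus reached from a change of -11.4% to one of 5.11% for *Chpt1* and from -10.8% to 6.04% for *Cept1*. Per kilobase *Cept1* held the larger share, with 71.6% and 72.8% in *Myh10+/+* lungs and 72.4% and 72.3% in *Myh10-/-* lungs (exact permutation test, two-sided, p = 1.0). Both genes share exon sequence with neighbours on the opposite strand, 660 bp for *Chpt1* and 776 bp for *Cept1*, and 20.7% of the 75-base windows of *Cept1* also occur in a neighbour, so this balance between them is uncertain. By raw counts *Cept1* made up 48.5% and 50.1% in *Myh10+/+* lungs and 49.6% and 49.5% in *Myh10-/-* lungs, so which gene is larger depends on the exon length.

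*Lpcat1* (ENSMUSG00000021608, chromosome 13, 73467197 to 73516422, plus strand) encodes the lysophosphatidylcholine acyltransferase that loads palmitate in AT2 cells. Its CPM was 521 and 484 in *Myh10+/+* lungs and 362 and 406 in *Myh10-/-* lungs. Each mutant lung lay well below each wild-type lung, and the gap between genotypes exceeded the difference within them. By edgeR's quasi-likelihood test *Lpcat1* fell by 23.6% in *Myh10-/-* lungs, with a log2 fold change of -0.39 (SE 0.07, 95% interval -0.53 to -0.25, adjusted p = 0.0166, n = 2 per genotype). It had no exon in common with another gene and shared none of its 75-base windows with other transcripts. The call held in each of the 14 alternative fits, with a log2 fold change of -0.39 to -0.37 when all lungs were used and of -0.47 to -0.30 when 1 lung was left out. DESeq2 gave an adjusted p of 2.03e-05, and the highest adjusted p of any fit was 0.0449, with counts thinned to the smallest total.

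**Figure D2:**
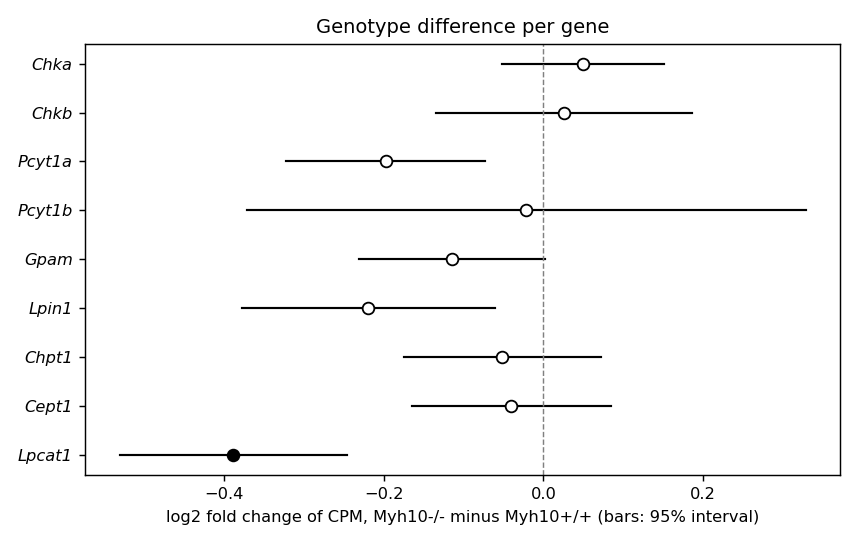
Log2 fold change of each of the 9 genes in *Myh10-/-* against *Myh10+/+* lungs, with 95% intervals from edgeR's quasi-likelihood fit. The filled point marks adjusted p under 0.05, reached by *Lpcat1* at -0.39, and open points mark the other genes, from -0.22 for *Lpin1* to 0.05 for *Chka*.

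*Lpcat1* has 3 relatives that acylate lysophosphatidylcholine with other preferences, such as *Lpcat3*, which favours polyunsaturated chains. Of the level per kilobase of these 4 genes, *Lpcat1* made up 82.1% and 81.9% in *Myh10+/+* lungs and 78.4% and 79.3% in *Myh10-/-* lungs. It was the dominant form in both genotypes, and its share was lower in both mutant lungs, with a change of -3.16 percentage points. *Lpcat3* held 13.3% and 12.8% in *Myh10+/+* lungs and 14.6% and 14.4% in *Myh10-/-* lungs, although its own log2 fold change was -0.18 (SE 0.08, adjusted p = 0.288 by edgeR's quasi-likelihood test). *Lpcat4* moved from 3.45% and 3.84% of the step to 5.09% and 4.54%. Its own log2 fold change was 0.07 (SE 0.09, adjusted p = 0.753 by the same edgeR test). *Lpcat2* was minor, with at most 1.89% in any lung. The exact permutation test (two-sided) of the *Lpcat1* share gave p = 0.33, the smallest possible with 2 against 2 lungs, and 1.0 after adjustment over the 6 enzyme steps compared.

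**Figure D3:**
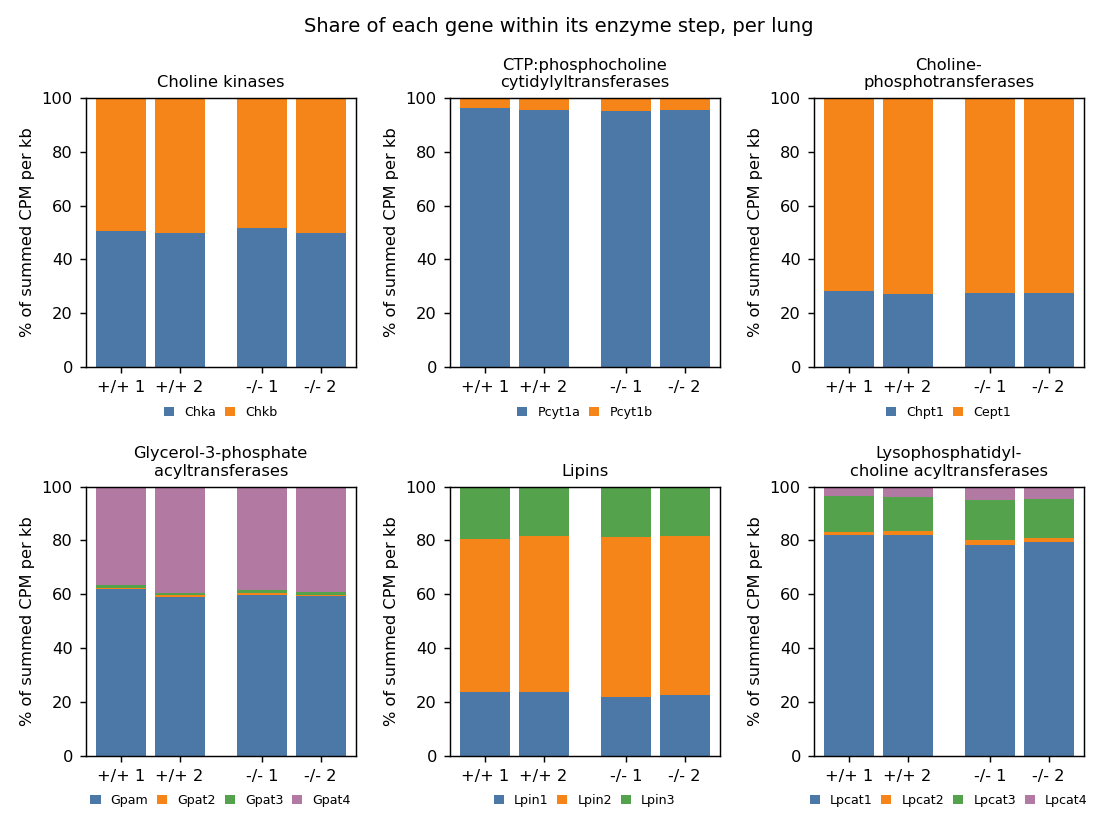
Share of each gene in the summed CPM per kilobase of its enzyme step (stacked to 100%), one bar per lung, with *Myh10+/+* lungs on the left and *Myh10-/-* lungs on the right of each panel. *Pcyt1a* holds over 95% of its step in every lung, *Chka* and *Chkb* about equal parts, and the *Lpcat1* share is 82.1% and 81.9% in *Myh10+/+* against 78.4% and 79.3% in *Myh10-/-* lungs.

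Around these 9 genes, 46 further genes of glycerophospholipid metabolism in 7 lists were examined, of which 45 could be tested. Of these 1 was lower and 0 were higher, next to the background of 1.34% and 0.298%, and their median log2 fold change was -0.09. The lower gene was *Plpp3* (*Ppap2b* in the table), a surface phosphatase of phosphatidate and related lipids. It had 141 and 142 CPM in *Myh10+/+* lungs and 115 and 122 CPM in *Myh10-/-* lungs. Both mutant values were lower (log2 fold change -0.26, SE 0.05, adjusted p = 0.0332 by edgeR's quasi-likelihood test). The call of *Plpp3* was lost without *Myh10+/+* lung 1 (adjusted p = 0.145) and without *Myh10+/+* lung 2 (0.130). No gene of the other lists passed. Among choline transporters the log2 fold change ran from -0.37 for *Slc44a4* to 0.01 for *Slc44a1*. The value of *Slc44a4* was imprecise (SE 0.22), at 2.26 to 3.68 CPM. *Slc5a7*, with under 5 counts in every lung, could not be tested. In the ethanolamine branch it ran from -0.09 for *Pcyt2*, the cytidylyl transferase for ethanolamine, to 0.30 for *Pemt*, which methylates phosphatidylethanolamine to phosphatidylcholine. Among acyltransferases of glycerol-3-phosphate and lysophosphatidate the log2 fold change ran from -0.22 for *Agpat2* to 0.05 for *Gpat3*, and among remodelling enzymes from -0.18 for *Lpcat3* to 0.19 for *Lpcat2*. In the list of enzymes that use diacylglycerol or phosphatidate for other lipids, the triglyceride synthases *Dgat2* and *Dgat1* marked the ends, at -0.28 and 0.11. Of the transfer proteins, *Stard10* was lowest at -0.19 and *Pctp* highest at 0.06.

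Fatty acids for surfactant are made in the AT2 cell or taken up. Of the 18 genes of fatty acid supply 6 were lower in *Myh10-/-* lungs and 0 higher, next to 1.34% and 0.298% of all tested genes. Their median log2 fold change was -0.21. The steepest difference was in *Scd1*, the desaturase that makes oleate and palmitoleate, with 164 and 142 CPM in *Myh10+/+* lungs and 36.2 and 57.7 CPM in *Myh10-/-* lungs. Each mutant lung lay far below each wild-type lung (log2 fold change -1.70, SE 0.15, adjusted p = 4.99e-04 by edgeR's quasi-likelihood test). *Scd2*, a desaturase gene with a higher level, had 1696 and 1520 CPM in *Myh10+/+* lungs and 1155 and 1281 CPM in *Myh10-/-* lungs. Its mutant values were both lower without passing the same test (log2 fold change -0.40, SE 0.10, adjusted p = 0.0784). *Fasn*, the synthase of palmitate itself, had 418 and 386 CPM in *Myh10+/+* lungs and 288 and 289 CPM in *Myh10-/-* lungs. It fell in both mutant lungs by a similar amount (log2 fold change -0.48, SE 0.05, adjusted p = 0.00360 by the same test). *Fabp5*, a fatty acid carrier, was lower with a log2 fold change of -0.50 (SE 0.08, adjusted p = 0.0141). *Acly*, which supplies acetyl-CoA, was lower with -0.21 (SE 0.05, adjusted p = 0.0407). *Srebf1*, the regulator of lipogenic genes, was lower with -0.30 (SE 0.06, adjusted p = 0.0293), and so was *Insig1*, which retains it in the endoplasmic reticulum, with -0.35 (SE 0.07, adjusted p = 0.0296). *Scd1* no longer passed with robust = TRUE (0.229), and *Acly*, *Srebf1* and *Insig1* lost their calls without *Myh10+/+* lung 1 (0.266, 0.0856 and 0.0772), as did *Acly* and *Srebf1* without lung 2 (0.139 and 0.0692). *Fasn* and *Fabp5* passed in all 14 alternatives. The other 12 genes, among them *Scd2*, the elongases and acyl-CoA synthetases, did not pass.

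Markers of the cells that make surfactant also differed between these lungs. Over all cell type lists, 20 of 48 tested markers were lower and 0 higher, next to 1.34% and 0.298% of all tested genes. Of 10 AT2 markers 7 were lower and 0 higher, and the median log2 fold change was -0.42. Their summed level was 9091 and 8660 CPM in *Myh10+/+* lungs and 6085 and 7198 CPM in *Myh10-/-* lungs, and *Sftpc* made up most of it. Those that passed were the surfactant proteins *Sftpa1* (-0.57), *Sftpb* (-0.48) and *Sftpd* (-1.06), the lamellar body genes *Abca3* (-0.26) and *Lamp3* (-0.38), the phosphate transporter *Slc34a2* (-0.56) and the protease *Napsa* (-0.42). Values for *Sftpc* (log2 fold change -0.41, adjusted p = 0.173), *Cebpa* (-0.27) and *Etv5* (0.01) did not pass. *Abca3* and *Lamp3* lost their calls without *Myh10+/+* lung 1, *Sftpb* without *Myh10+/+* lung 2 and *Slc34a2* without *Myh10-/-* lung 1 (adjusted p = 0.332, 0.0623, 0.0633 and 0.0845). With a block that pairs the lungs alike in *Xist* and *Ddx3y*, *Abca3* did not pass either (0.0589). The AT1 markers *Hopx*, *Pdpn*, *Ager*, *Aqp5* and *Rtkn2*, 5 of 5, were lower, from -1.23 for *Aqp5* to -0.37 for *Pdpn*, and their summed level was 1164 and 1146 CPM in *Myh10+/+* lungs and 716 and 882 CPM in *Myh10-/-* lungs. *Hopx* and *Aqp5* lost their calls under DESeq2 (adjusted p = 0.232 and 0.0531) and with robust = TRUE (0.0950 and 0.237), and *Pdpn* lost its call without *Myh10+/+* lung 1 (0.0538). Of 6 pan-epithelial markers 3 were lower, *Cdh1* (-0.30), *Krt8* (-0.33) and *Krt19* (-0.35), whereas *Epcam* (-0.04) and *Nkx2-1* (0.02) had overlapping values. *Krt18* had lower values in both mutant lungs without passing (-0.24, adjusted p = 0.0691 by edgeR's quasi-likelihood test). *Cdh1* did not pass without *Myh10+/+* lung 1 (adjusted p = 0.107). The summed pan-epithelial level was 1515 and 1528 CPM in *Myh10+/+* lungs and 1327 and 1366 CPM in *Myh10-/-* lungs. The *Lpcat1* difference, at -0.39, lay between the medians of the pan-epithelial list (-0.27) and the AT2 list, and the part of the epithelial composition in it was not tested.

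Genes of other cell types in the lobe were measured alongside, and over all tested genes 1.34% were lower and 0.298% higher. None of 7 mesenchymal markers, 4 lipofibroblast markers or 4 endothelial markers passed, with median log2 fold changes of -0.04, -0.08 and -0.10. The summed levels were 5301 and 5453 CPM in *Myh10+/+* against 5279 and 5138 CPM in *Myh10-/-* lungs for mesenchyme, and 1150 and 1093 against 1061 and 1021 CPM for endothelium. For lipofibroblasts, the lipid-storing cells next to AT2 cells, they were 170 and 169 against 139 and 167 CPM. Among 4 leukocyte markers *Lyz2*, which AT2 cells express as well, was lower (-0.44), and the list summed to 246 and 230 against 167 and 201 CPM. Of 4 erythroid markers *Alas2* was lower (-0.53), with summed levels of 3131 and 3913 against 2779 and 3128 CPM. Of 4 cardiac muscle markers tested 3 were lower, *Myh6* (-0.73), *Myl7* (-0.65) and *Tnnt2* (-0.57), and the list, in which *Nppa* had at most 2 counts a lung, summed to 183 and 234 against 147 and 134 CPM. Without *Myh10+/+* lung 2 the calls of *Alas2* and *Tnnt2* were lost (adjusted p = 0.0679 and 0.189). The part of these cell types in the values of the 9 phosphatidylcholine genes was not tested.

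**Figure D4:**
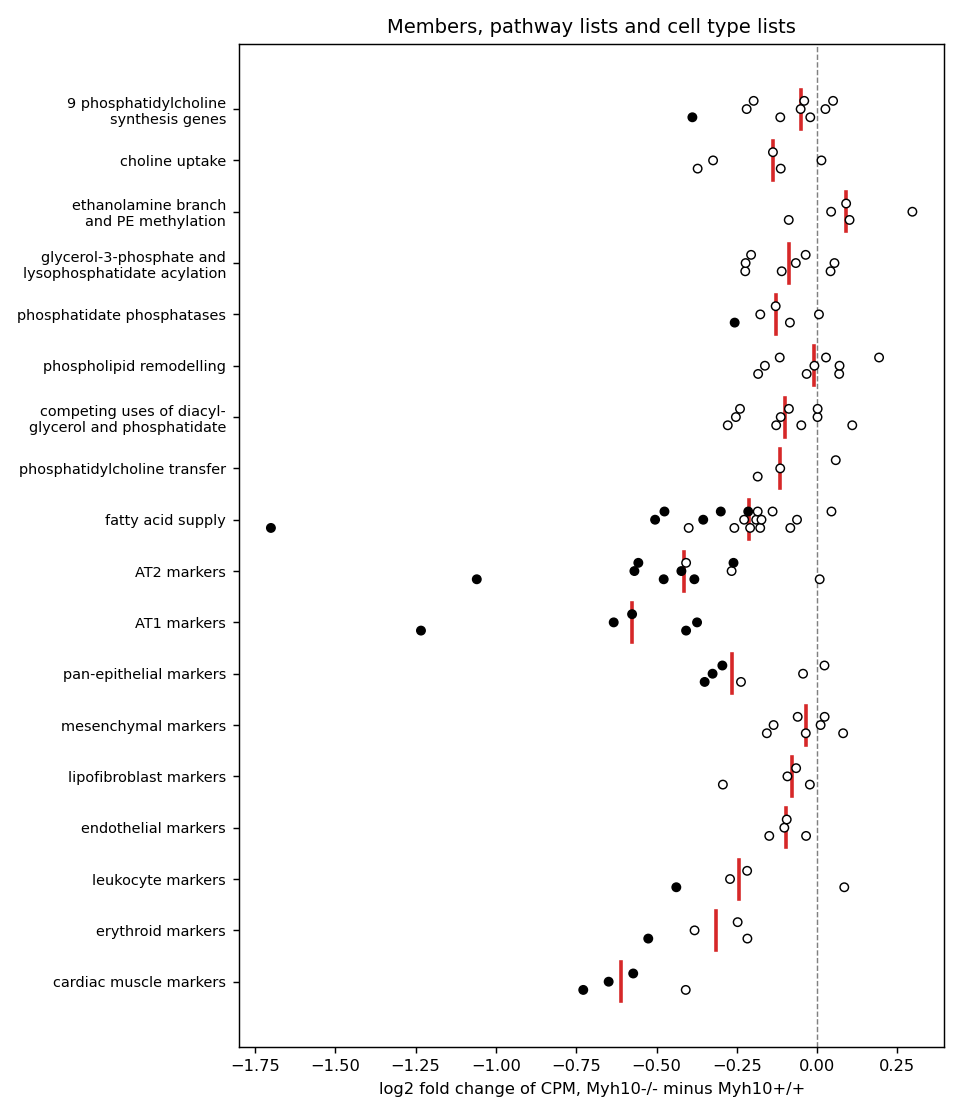
Log2 fold change in *Myh10-/-* against *Myh10+/+* lungs of every tested gene of the 9 phosphatidylcholine synthesis genes, 8 pathway lists and 9 cell type lists, with a vertical bar at each median. Filled points (adjusted p under 0.05) are seen for 1 of the 9 genes, 6 of 18 fatty acid genes, 7 of 10 AT2 markers and 5 of 5 AT1 markers. They are also seen for 3 of 6 pan-epithelial, 3 of 4 cardiac muscle, 1 of 4 leukocyte and 1 of 4 erythroid markers. The remaining filled point is 1 of 5 phosphatidate phosphatases.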

How the data were processed

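Stranded mRNA libraries of whole left lobes at E17, from 2 mice of each genotype, were sequenced by the authors with single-end reads of 75 bases. The deposited table holds whole-number read counts for each Ensembl gene and lung, without scaling. Per the submitters' notes and the methods, Reaper trimmed the reads, STAR 2.4.0a placed them on GRCm38 and featureCounts 1.5.1 counted those that touched an exon. Reads on several genes or regions were left out, which lowers genes that overlap or resemble others, and the use of strand in counting is not given in the sources used here. Transcripts (GENCODE M21) were searched for shared windows of 75 bases.

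Groups came from the sample titles, and each lung is from a separate mouse. Genotypes were compared with edgeR 4.0.16 (R 4.3.3) by its quasi-likelihood test, with TMM scaling and robust = FALSE, for the 18763 genes averaging 5 or more counts per lung, and p-values were adjusted over all of them (Benjamini-Hochberg). SE is the log2 fold change over the root of F. Shares used CPM per kilobase of exon. One count equals 0.0311 to 0.0525 CPM, and replicate lungs differed by more than counting error (chi-square per degree of freedom 7.57 and 13.0). These values include *Xist* and *Ddx3y*, which differed strongly between the lungs of each genotype, and they were not computed without them. The number of lungs limits precision. The code was tested on simulated data.

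The 9 genes and all lists were chosen with earlier results of these data known. Named genes were the 9, genes of the same enzyme step and list genes that passed. The highest and lowest gene of each pathway list in which none passed were also named. Others were named after their values were seen (*Scd2*, *Sftpc*, *Cebpa*, *Etv5*, *Epcam*, *Nkx2-1*, *Krt18*, *Nppa*, *Slc5a7*, *Myh10*, *Xist*, *Ddx3y*). The 8 pathway lists cover choline uptake, the ethanolamine branch, glycerol-3-phosphate acylation, phosphatidate phosphatases, remodelling, competing lipids, transfer and fatty acid supply. The 9 cell type lists cover AT2, AT1, pan-epithelial, mesenchymal, lipofibroblast, endothelial, leukocyte, erythroid and cardiac muscle markers. In all 6 list genes were matched by older symbols.

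Alternatives were DESeq2 size factors, library totals, no minimum count, filterByExpr, robust = TRUE, DESeq2 1.42.0, genes outside chromosomes X, Y and MT, the replicate number as a block, raw counts for the shares, and leaving out each lung. A crossed block and thinned counts were added after seeing the data.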

Additional observations from a re-analysis of the deposited data

How the results depend on the processing

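*Lpcat1* kept its direction and its call in all 14 alternatives. Over the 9 genes, 121 of 125 single-gene values kept direction and side of the threshold, 2 passed newly (both *Pcyt1a*) and 2 changed sign, *Chkb* without *Myh10-/-* lung 2 (log2 fold change -0.0089, range -0.0089 to 0.063 with 1 lung left out) and *Pcyt1b* without *Myh10+/+* lung 2 (0.088, range -0.135 to 0.088). Of 377 values of called list genes 38 lost the call and 0 changed sign. *Acly* lost it with library totals (adjusted p = 0.0525), without chromosomes X, Y and MT (0.0642) and in further fits, and *Slc34a2*, *Lyz2* and *Alas2* under DESeq2 (0.0882, 0.164 and 0.141).

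Without a minimum count 2 of the 9 genes were lower, 14 pathway genes were lower, and 688 genes were lower and 474 higher of all tested. With thinned counts the numbers were 3 pathway genes, 13 cell type genes, and 108 lower and 16 higher of all. The number of higher genes was 112 with library totals, 135 with robust = TRUE, 92 with DESeq2 and 90 without chromosomes X, Y and MT. Leaving out 1 lung, where the lone lung is assumed to vary like the other genotype, gave 1 to 2 of the 9 genes lower, 3 to 18 pathway genes lower, and 175 to 875 lower and 31 to 768 higher of all. The extremes for all genes came without *Myh10+/+* lung 2 and without *Myh10-/-* lung 2. The causes were not tested.

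Same-numbered lungs deviated with a correlation of -0.214 across genes and of -0.02 without chromosomes X, Y and MT. With so few lungs, this correlation cannot decide whether the numbers pair the lungs. Same-numbered lungs also differed in *Xist* and *Ddx3y*, and the sample titles do not say what the numbers mark. With the replicate block 466 genes were lower and 244 higher, 13 pathway genes and 22 cell type genes were lower, and of the 9 genes 1 was (*Lpcat1*, log2 fold change -0.39, adjusted p = 0.00980). The crossed block called 320 genes lower and 95 higher.

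The share differences between genotypes reversed for *Chka* without *Myh10-/-* lung 1 (-0.59 percentage points, range -0.59 to 1.45), for *Chpt1* without *Myh10+/+* lung 1 (0.48, range -0.79 to 0.48) and for *Gpam* without *Myh10+/+* lung 1 (0.71, range -2.26 to 0.71).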

Other observations

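The level of *Lpcat1* relative to single epithelial genes of the same lung, chosen after values were seen and given without a test, differed with the gene it was set against. Against *Lamp3*, a lamellar body membrane protein, the log2 ratio of CPM was 0.38 and 0.44 in *Myh10+/+* lungs and 0.39 and 0.41 in *Myh10-/-* lungs, with overlap. Against *Sftpb* it was -0.65 and -0.72 in *Myh10+/+* lungs and -0.66 and -0.53 in *Myh10-/-* lungs, again with overlap. Against *Slc34a2* it was higher in both mutant lungs (-0.66 and -0.62 in *Myh10+/+*, -0.36 and -0.56 in *Myh10-/-* lungs). Against *Abca3* it was lower in both (0.54 and 0.59 in *Myh10+/+*, 0.34 and 0.53 in *Myh10-/-* lungs), and so it was against *Cdh1* (0.43 and 0.39 in *Myh10+/+*, 0.25 and 0.37 in *Myh10-/-* lungs). Against *Nkx2-1*, the transcription factor of lung epithelium, it was 0.26 and 0.09 in *Myh10+/+* lungs and -0.33 and -0.14 in *Myh10-/-* lungs, both lower. Against *Epcam* it was 1.86 and 1.68 in *Myh10+/+* lungs and 1.29 and 1.55 in *Myh10-/-* lungs, both lower as well.

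For *Pcyt1a* the same 7 genes were used. Its log2 ratio to *Sftpb* was -2.37 and -2.40 in *Myh10+/+* lungs and -2.15 and -2.06 in *Myh10-/-* lungs, higher in both mutant lungs. Its log2 ratio to *Lamp3* was -1.33 and -1.24 in *Myh10+/+* lungs and -1.10 and -1.11 in *Myh10-/-* lungs, also higher in both. The ratios to *Slc34a2* (-2.37 and -2.30 in *Myh10+/+*, -1.85 and -2.08 in *Myh10-/-* lungs) and *Cdh1* (-1.29 and -1.29 in *Myh10+/+*, -1.24 and -1.15 in *Myh10-/-* lungs) were higher in both mutant lungs as well. The ratio to *Nkx2-1* was lower in both, as for *Lpcat1* (-1.45 and -1.59 in *Myh10+/+*, -1.82 and -1.66 in *Myh10-/-* lungs). That to *Abca3* overlapped (-1.18 and -1.09 in *Myh10+/+*, -1.15 and -0.99 in *Myh10-/-* lungs). Set against *Epcam*, *Pcyt1a* overlapped between genotypes, with 0.14 and -0.01 in *Myh10+/+* lungs and -0.20 and 0.03 in *Myh10-/-* lungs.

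When each *Myh10-/-* lung was set against the *Myh10+/+* lung with the same *Xist* and *Ddx3y* pattern, the log2 ratio of *Lpcat1* was -0.36 and -0.42, that of *Lpin1* was -0.23 and -0.21, and that of *Pcyt1a* was -0.17 and -0.23. *Gpam*, at -0.19 and -0.04, varied more between these comparisons.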
